A study of Mus musculus with 26 samples.

Results

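The unfolded protein response is the program by which a cell adjusts its endoplasmic reticulum (ER) to the load of proteins that must be folded there. Its expression was followed through 10 genes: *Hspa5*, *Hsp90b1*, *Calr*, *Pdia4*, *Pdia6* and *Dnajb9*, which encode chaperones, foldases and a co-chaperone of the ER, *Herpud1*, which encodes a component of ER-associated degradation, and *Xbp1*, *Atf4* and *Ddit3*, which encode transcription factors of the response. The genes were taken by name as known members of this response, 10 of the 35944 genes with a matched transcript, and all 10 were among the 15465 genes that passed the filter on low counts. The RNA-seq libraries came from TCRTg101, CD8+ T cells that carry a transgenic T cell receptor from a CD8+ clone specific for C1498, a leukemia line of C57BL/6 mice. The study's methods place the transgene on a Rag2-/- background, and the labels give all samples as 6 week old C57BL/6 mice of wild type genotype. Naive TCRTg101 were labelled with a division dye and transferred, mice were inoculated with C1498 1 day later, and TCRTg101 were sorted by flow cytometry.

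The control group held 3 spleen libraries, 2 of naive TCRTg101 at day 0 and 1 of day 18 without leukemia. From leukemia-bearing mice there were 2 early spleen libraries (day 7), 1 mid spleen library (day 14), 1 undivided library of dye-high spleen cells (day 18), 2 early liver libraries (day 7), 3 mid liver libraries (days 13, 13 and 14) and 2 late liver libraries (days 18 and 16). A further control library, made with oligo-dT priming, entered no test. Because every control library was from spleen, the liver and the leukemia changed together and their effects cannot be told apart in any comparison of liver with control. Control replicate 1, mid liver replicate 1 and late liver replicate 1 have titles of the TG series and the other 11 low-input libraries titles of the XC series, and the series was a term in every test. The labels do not say whether libraries of a group came from separate mice, so the tests measure only the spread between these libraries. Totals of estimated counts ran from 22918996 to 71358287 per library, and the rarest of the 10 genes, *Dnajb9*, still had 306 to 3738 counts in each low-input library, so the number of libraries, rather than counting error, limited precision.

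A set of 3 ER membrane sensors governs the response in mammalian cells. IRE1 (*Ern1*) splices *Xbp1* mRNA, PERK (*Eif2ak3*) phosphorylates eIF2alpha and thereby favours translation of *Atf4*, and ATF6 is released by proteolysis. XBP1 and ATF6 act on ER chaperone and degradation genes, whereas ATF4 acts on amino acid metabolism and on *Ddit3*, which encodes CHOP. In lymphocytes the XBP1 branch is best known from plasma cells, which build a large secretory apparatus. Much of this regulation acts on translation, splicing and proteolysis, which the mRNA levels given here do not measure. None of the 4 annotated *Xbp1* transcripts contains an intron shorter than 300 bases, so the form made by IRE1, which lacks a far shorter stretch, had no transcript of its own in the annotation used here and was counted together with the unspliced form.

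The promoters of these genes are where ER stress elements were first described. The exact matches to 4 such elements are shown because they divide the 10 genes by sequence alone, although the 10 genes were chosen with earlier results of these data known. The search covered both strands of the RefSeq windows that run from 250 bases before to 50 bases after the transcription start (GRCm38.p6), in which all 10 genes had an entry. The elements were the ER stress element ERSE (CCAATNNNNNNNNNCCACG), ERSE-II (ATTGGNCCACG), the UPR element UPRE (TGACGTG) and the C/EBP-ATF response element CARE (TGATGNAA). ERSE occurred in 0.119% of the 32851 windows, ERSE-II in 0.0365%, UPRE in 2.01% and CARE in 3.97%. Of the 10 genes, 4 had an exact ERSE (*Hspa5*, *Hsp90b1*, *Calr* and *Pdia6*) and 1 had an exact ERSE-II (*Herpud1*). Each match follows with flanking bases, read 5′ to 3′ on the strand of the gene, with the element in capitals; an element on the opposite strand reads as its reverse complement.
Hspa5 ERSE (chr2:34772020-34772048, plus strand): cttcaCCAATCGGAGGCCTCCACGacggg
Hspa5 UPRE (chr2:34771924-34771948, plus strand): gcgtagcaaTGACGTGagttgcgga
Hsp90b1 ERSE, far (chr10:86705633-86705661, minus strand): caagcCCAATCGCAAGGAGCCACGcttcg
Hsp90b1 ERSE, near, opposite strand (chr10:86705528-86705556, minus strand): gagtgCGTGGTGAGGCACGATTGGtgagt
Calr ERSE, opposite strand (chr8:84847070-84847098, minus strand): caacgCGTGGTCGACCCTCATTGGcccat
Pdia6 ERSE (chr12:17266486-17266514, plus strand): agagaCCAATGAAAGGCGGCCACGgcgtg
Herpud1 ERSE-II (chr8:94386368-94386396, plus strand): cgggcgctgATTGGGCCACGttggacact
Herpud1 CARE, opposite strand (chr8:94386308-94386333, plus strand): cacggcgggTTGCATCAgcccgcacc
The matches lay upstream of the RefSeq start, the ERSE of *Hspa5* from base -65 to base -47, that of *Pdia6* from -98 to -80, that of *Calr* from -162 to -144, and the ERSE-II of *Herpud1* from -52 to -42. *Hsp90b1* was the only one of the 10 with a pair of ERSE, from -212 to -194 and from -107 to -89. In the GENCODE vM21 annotation the *Hspa5* gene starts further upstream, at base 34771970 of chromosome 2, so its ERSE lies inside that gene and its UPRE before it, whereas the printed windows of the other genes lie before the gene start in both annotations. By the same annotation (GRCm38) the genes without a printed element are *Pdia4* (chr6:47796141-47813430), *Dnajb9* (chr12:44205559-44210326), *Xbp1* (chr11:5520659-5525893), *Atf4* (chr15:80255184-80257541) and *Ddit3* (chr10:127290774-127296288). No exact match to any of the 4 elements was found for *Pdia4*, *Dnajb9*, *Xbp1*, *Atf4* or *Ddit3*, which says only that these letters are not in these windows.

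**Figure D1:**
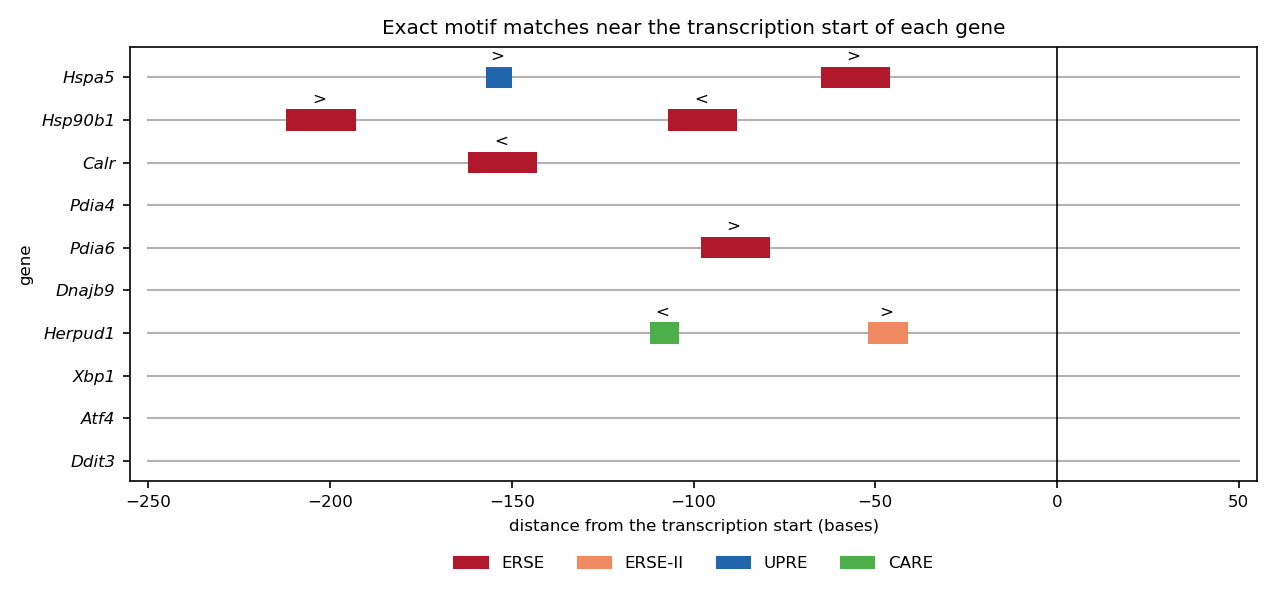
Exact matches to ERSE, ERSE-II, UPRE and CARE (coloured blocks) in the window of each gene, by distance in bases from the RefSeq transcription start (vertical line at 0); arrowheads give the strand relative to the gene. Matches lie between -212 and -42, and 5 of the 10 genes have none.

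In TPM, which is per length and so allows genes to be compared within a library, *Hspa5* was the highest of the 10 in controls, with a median of 366.4 TPM, followed by *Calr* at 307.5. The control ranges of these neighbours overlapped, with *Hspa5* at 268.6 to 387.8 TPM and *Calr* at 247.5 to 363.5. *Atf4* (median 146.1 TPM) and *Hsp90b1* (132.2) formed the next pair, and their control ranges of 142.2 to 174.7 and 88.48 to 151.1 overlapped as well. *Herpud1* (69.19 TPM), *Pdia6* (67.16), *Pdia4* (57.12) and *Xbp1* (49.87) followed close together, and the ranges of each neighbouring pair overlapped. Between *Calr* and *Atf4*, *Hsp90b1* and *Herpud1*, and *Xbp1* and *Ddit3* the control ranges did not overlap. *Ddit3* (35.06 TPM) and *Dnajb9* (16.78) were lowest, again with overlapping ranges of 26.96 to 41.22 and 14.13 to 34.44. Within each control library *Hspa5* exceeded *Calr*, *Herpud1* exceeded *Pdia6* and *Ddit3* exceeded *Dnajb9*. The order within the other overlapping pairs varied between libraries. Across the 5 mid and late liver libraries *Hspa5* (median 738.6 TPM) and *Calr* (427.7) remained first, *Hsp90b1* (236) and *Pdia6* (183.5) stood above *Atf4* (157.1), and *Dnajb9* remained last at 6.429 TPM. Comparisons between libraries below use CPM, counts scaled to a fixed library total and by TMM factors (a correction for differences in RNA composition), which are not per length and are therefore compared only within a gene.

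Did the response genes differ between TCRTg101 in the livers of leukemia-bearing mice and control TCRTg101? In mid and late liver libraries together (n = 5), 6 of the 10 genes were higher than in control libraries (n = 3), namely *Hspa5*, *Hsp90b1*, *Calr*, *Pdia4*, *Pdia6* and *Xbp1*, by 1.8-fold for *Calr* to 3.70-fold for *Pdia6*. *Dnajb9* fell, and the changes of *Herpud1*, *Atf4* and *Ddit3* did not pass the test. Calls rest on the quasi-likelihood test of edgeR, with p-values adjusted by Benjamini-Hochberg over all tested genes and a threshold of 0.05. This was a comparison in which many genes changed: 23.1% of all tested genes were called higher and 20.8% lower, so about 2 of 10 genes in each direction would match the background. The median log2 fold change was 0.92 over the 10 genes and -0.07 over all tested genes. In bulk RNA, more cells that use a gene and more RNA of it per cell cannot be told apart.

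*Hspa5* encodes BiP, the HSP70 chaperone of the ER lumen that also binds the stress sensors. It was at 610.5, 766.9 and 648.5 CPM in the 3 control libraries, at 835.5, 1505 and 2018 CPM in the mid liver libraries and at 1020 and 1517 CPM in the late liver libraries. All 5 mid and late values were above all 3 control values, and the fitted difference was 2.00-fold (log2 1.0 ± 0.31 SE, adjusted p = 0.0269, edgeR). The lowest liver values were those of the 2 TG libraries, and the rise was 1.52-fold within the TG series (1 control) and 2.37-fold within the XC series (2 controls). This call depended on scaling. Without TMM factors, when the median of all genes moved from -0.07 to -0.33, the log2 fold change was 0.73 (adjusted p = 0.0773), and in the deposited TPM the TG liver libraries, at 250.8 and 252.4 TPM, did not exceed the TG control at 268.6.

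*Hsp90b1* encodes GRP94, the HSP90 chaperone of the ER. Its control values were 253, 320.8 and 339.8 CPM, against 612.4, 749.6 and 1060 CPM in mid liver and 582.1 and 703.7 CPM in late liver. The groups were separate by a wide margin, and the rise was 2.42-fold (log2 1.27 ± 0.26 SE, adjusted p = 0.00515). It was of nearly one size within both series, 2.36-fold in TG and 2.54-fold in XC. *Calr* encodes calreticulin, the lectin chaperone of glycoprotein folding, and was among the steadiest of the 10 in controls, at 501.5, 510 and 544.1 CPM. In mid liver it was at 819.9, 783.1 and 1032 CPM and in late liver at 1169 and 827.3 CPM, again without overlap. The rise of 1.8-fold (log2 0.85 ± 0.23 SE, adjusted p = 0.0146) was the smallest of the 6.

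The protein disulfide isomerases *Pdia4* and *Pdia6* form and rearrange disulfide bonds in ER clients. *Pdia6*, also called P5, was at 140.6, 129.5 and 135.7 CPM in controls, at 608.7, 382.2 and 604.6 CPM in mid liver and at 654.5 and 369 CPM in late liver. Its lowest mid or late value, 369 CPM, was far above its highest control value, and its 3.70-fold rise (log2 1.89 ± 0.42 SE, adjusted p = 0.00779) was the largest of the 10 genes. *Pdia6* was also the only one of the 6 whose mid and late values lay above all control values in the deposited TPM. *Pdia4*, known as ERp72, was at 122.2, 137.3 and 174.5 CPM in controls, at 284.6, 299.7 and 444.2 CPM in mid liver and at 439.9 and 320.3 CPM in late liver. The rise of *Pdia4* was 2.53-fold (log2 1.34 ± 0.25 SE) and had the lowest adjusted p of the 10 (0.0043). Of the 4 genes with an exact ERSE all 4 rose, but *Pdia4* and *Xbp1* rose without an exact match in their windows. Of all 17 tested genes with an exact ERSE, these 4 among them, 8 were called higher (47.1%) and 3 lower (17.6%). Of the 10865 tested genes with a window, 24.8% were higher and 21.6% lower.

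*Dnajb9* went the other way. It encodes ERdj4, a J-domain co-chaperone of BiP that is known as a target of XBP1 and as a restraint on IRE1. Control values spread widely, at 43.9, 73.02 and 19.18 CPM, and liver values were 9.095, 18.93 and 15.45 CPM at mid and 6.667 and 16.11 CPM at late time points. The 5 liver values lay below the controls, but the highest of them was only just below the day 18 control. The fitted fall was 3.67-fold (log2 -1.87 ± 0.40 SE, adjusted p = 0.00679). It was large against the day 0 controls (log2 -2.32) and small against the day 18 control alone (log2 -0.23). The latter is a comparison with a single library, chosen after the data were seen. The undivided library, also of day 18, had 28.83 CPM and the 3 spleen libraries of leukemia-bearing mice 28.95 to 30.63 CPM, all between the 2 lower control values. The early liver libraries had 20.77 and 35.11 CPM, in the same interval.

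*Herpud1* encodes a ubiquitin-like ER membrane protein of the degradation complex. Control values of 148.4, 112.9 and 106.4 CPM overlapped mid liver values of 220.2, 129.2 and 141.7 and late liver values of 266.9 and 123.9 CPM, and the difference (log2 0.43 ± 0.17 SE) did not pass the test (adjusted p = 0.0655). Both TG liver libraries were high, with a ratio of 1.64 to the TG control, against 1.20 within the XC series.

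Among the transcription factor genes, *Xbp1* rose 2.01-fold (log2 1.01 ± 0.28 SE, adjusted p = 0.0164). It was at 100.5, 102.3 and 66.09 CPM in controls, at 180.4, 132.2 and 163.9 CPM in mid liver and at 303.5 and 148.8 CPM in late liver, and the highest value was that of the TG library of day 18. The groups overlapped for *Atf4*, with 295.5, 243.8 and 185.3 CPM in controls, 273.5, 234.7 and 268.9 CPM in mid liver and 300.6 and 240.3 CPM in late liver. Its difference was log2 0.12 ± 0.18 SE (adjusted p = 0.601), and the sign turned negative without TMM factors (log2 -0.14). *Ddit3* was at 39.01, 35.13 and 20.68 CPM in controls, at 28.1, 19.01 and 20.06 CPM in mid liver and at 33.01 and 19.94 CPM in late liver, with overlapping groups. Its log2 difference of -0.44 ± 0.20 SE missed the threshold (adjusted p = 0.096), although the fall was called without TMM factors (log2 -0.69, adjusted p = 0.0121). The annotation gives the symbol *Ddit3* to a pair of overlapping genes, and the one with more counts was used.

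**Figure D2:**
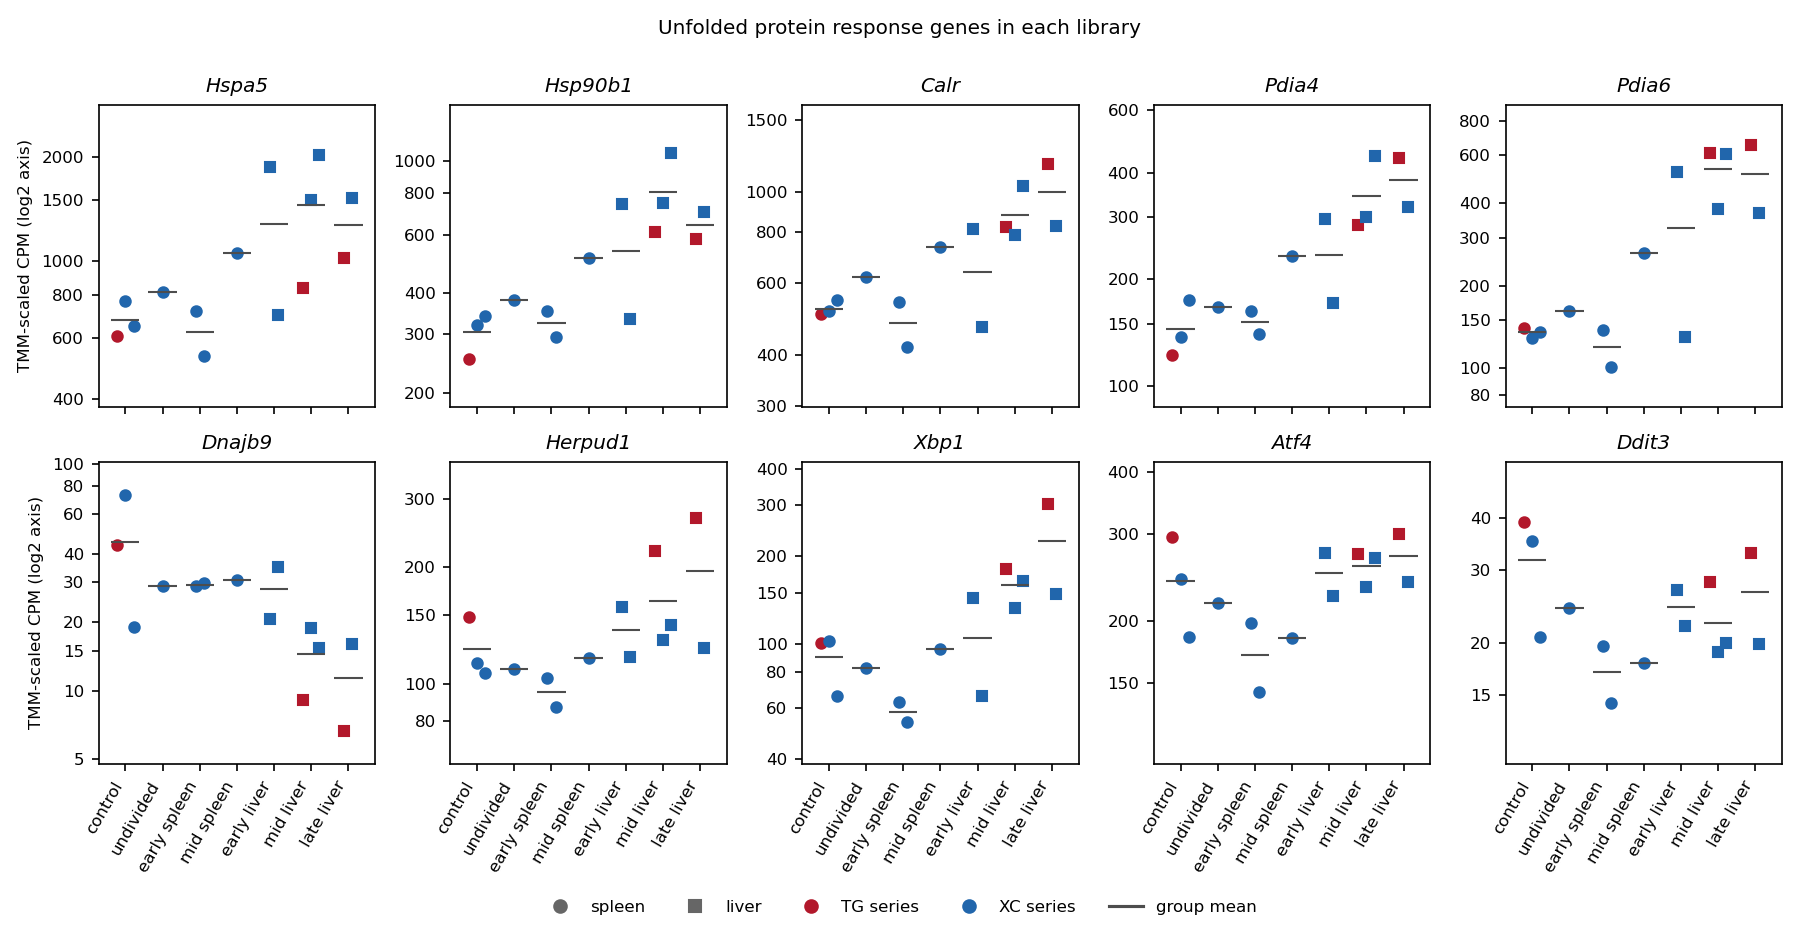
TMM-scaled CPM of each gene (log2 axis, a separate range per panel) in the 14 low-input libraries by group; circles are spleen and squares liver libraries, red is the TG and blue the XC series, and horizontal lines are group means. In mid and late liver all squares lie above all control circles for *Hspa5*, *Hsp90b1*, *Calr*, *Pdia4*, *Pdia6* and *Xbp1* and below them for *Dnajb9*.

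By separation of libraries alone, 6 of the 10 genes had all 5 mid and late values above all 3 control values, where 18.8% of tested genes did, and 1 had them all below, where 18.2% did. On the deposited TPM, which carry no TMM scaling, the counts were 1 above (*Pdia6*, 14.1% of tested genes) and 2 below (*Dnajb9* and *Ddit3*, 19.4%). On TPM scaled by TMM they were 5 and 1 (18.1% and 18.1% of tested genes). On CPM by library totals alone they were also 5 and 1 (14.1% and 24.9%). A limma test on log2(TPM + 1) called *Hsp90b1*, *Pdia4* and *Pdia6* higher and *Dnajb9* and *Ddit3* lower, and after TMM scaling all of the 7 except *Hspa5* (log2 0.90, adjusted p = 0.0581). Of all 15465 tested genes, limma called 2381 higher and 3449 lower on log2 TPM, and 3464 and 2593 after TMM scaling. The calls for *Hspa5*, *Calr* and *Xbp1* thus depended on the scale, whereas the rises of *Hsp90b1*, *Pdia4* and *Pdia6* and the fall of *Dnajb9* were called with TMM, RLE and no scaling factors and on both TPM scales. Without TMM factors all tested genes split into 2459 higher and 4712 lower, against 3571 and 3209 with them.

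The number of calls rested on few libraries. Leaving out 1 library at a time, 2 to 7 of the 10 genes were called in mid and late liver, and 2 genes (*Hsp90b1* and *Pdia4*) were called without control replicate 1 and 4 (*Hsp90b1*, *Pdia4*, *Pdia6* and *Dnajb9*) without late liver replicate 1, the TG libraries of day 0 and day 18. Calls over all tested genes fell as well, to 1282 higher and 742 lower without control replicate 1 and to 2398 and 1699 without late liver replicate 1. The call for *Hspa5* was lost without any 1 of the 3 controls, without either late liver library and without mid liver replicate 3, and that for *Xbp1* without control replicate 1 or 3 or late liver replicate 1. Within the XC series alone, none of the 10 passed the test and 6 of all tested genes did, although the log2 fold changes were 1.19 for *Hspa5*, 1.25 for *Hsp90b1*, 0.70 for *Calr*, 1.13 for *Pdia4*, 1.67 for *Pdia6*, 0.80 for *Xbp1* and -1.49 for *Dnajb9*. Against the day 18 control alone, a single library, the log2 fold changes were 1.37 for *Hspa5*, 1.25 for *Hsp90b1* and 1.70 for *Pdia6*.

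The time points were then compared one by one. In mid liver (n = 3) against control, 5 genes were higher, where 17.5% of all tested genes were, and *Dnajb9* was lower, where 11.8% were. The genes that rose were *Hspa5* (log2 1.03 ± 0.34 SE, adjusted p = 0.0458), *Hsp90b1* (1.4), *Calr* (0.76), *Pdia4* (1.24) and *Pdia6* (1.96), while *Xbp1* had a log2 fold change of 0.82 and an adjusted p of 0.0607. In late liver (n = 2), 5 genes were higher (19.9% of tested genes) and again *Dnajb9* was lower (14.3%). Here *Xbp1* was called (log2 1.19 ± 0.34 SE, adjusted p = 0.0231), with *Hsp90b1* (1.15), *Calr* (0.93), *Pdia4* (1.44) and *Pdia6* (1.81), and *Hspa5* was not (0.97, adjusted p = 0.0657). The direct comparison of late with mid liver called none of the 10, with log2 fold changes of -0.28 (*Dnajb9*) to 0.37 (*Xbp1*) and adjusted p-values of at least 0.987, and none of the 15465 genes (0% of them; 767 at an unadjusted p under 0.05, and 35 higher and 18 lower by DESeq2). The different calls for *Hspa5* and *Xbp1* are therefore not shown to be a difference between the time points. Without control replicate 1, none of the 10 was called in mid liver (5 higher and 0 lower of all tested genes) or in late liver (913 and 394). In mid liver none was called either without control replicate 2 (0 and 0), mid liver replicate 1 (3 and 0) or mid liver replicate 3 (32 and 1). In late liver 3 were called without control replicate 2 (2199 and 1435). Omitting either late liver replicate left 1 library in that group.

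**Figure D3:**
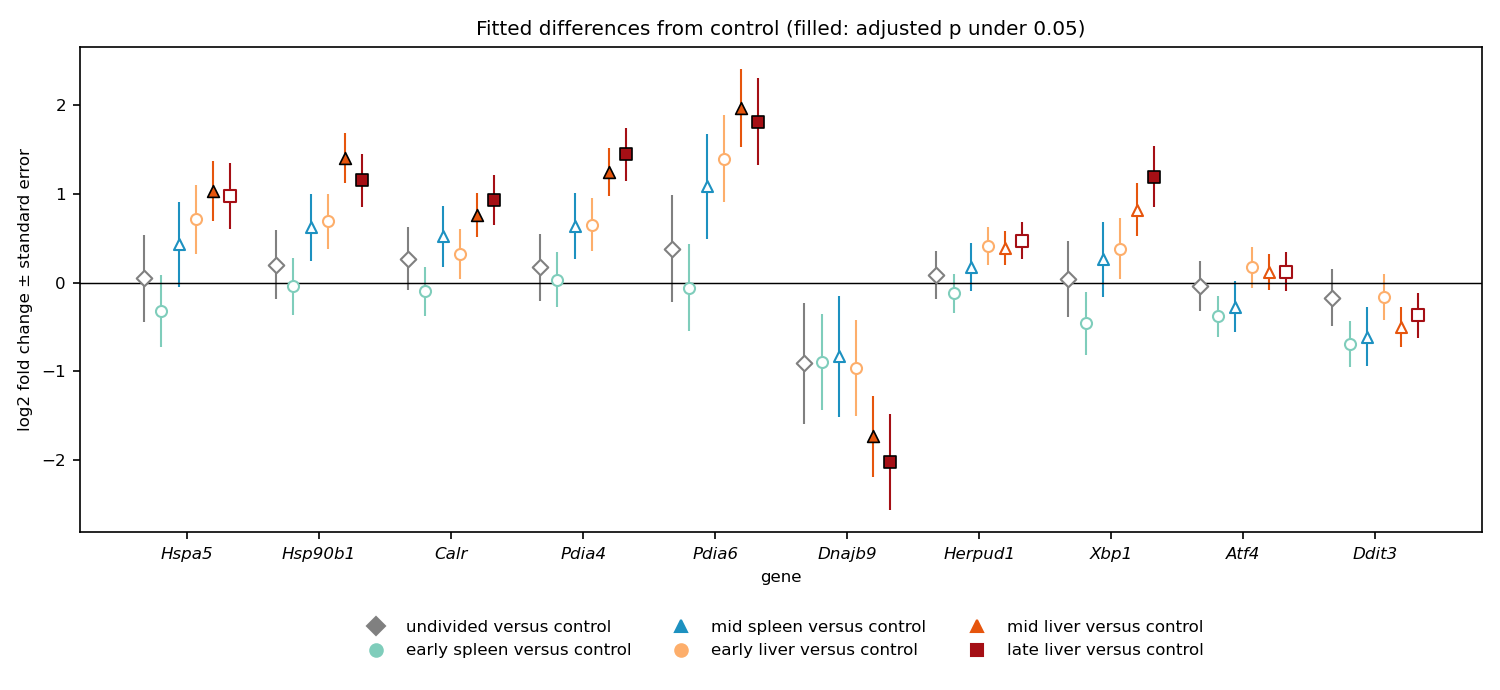
Fitted log2 fold change against control ± standard error for each gene in 6 comparisons; filled symbols with a black edge have an adjusted p under 0.05. Filled symbols are found only in mid and late liver, above 0 for 6 genes and below 0 for *Dnajb9*.

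At day 7 the 2 liver libraries differed widely from each other. Early liver replicate 1 had 1868 CPM of *Hspa5*, 522.2 of *Pdia6*, 741.1 of *Hsp90b1* and 143.4 of *Xbp1*, whereas replicate 2 had 699.5, 130.1, 332.7 and 65.89 CPM. Replicate 1 was thus 2.67 times replicate 2 for *Hspa5*, 4.01 times for *Pdia6*, 2.23 times for *Hsp90b1* and 2.18 times for *Xbp1*, and its values of these 4 genes lay within the range of the mid and late libraries. Replicate 2 lay close to the controls for all 6 of the genes that rose later. Against control none of the 10 was called, nor was any tested gene (0%; 1675 at an unadjusted p under 0.05; 257 higher and 152 lower by DESeq2), and the largest difference was that of *Pdia6* (log2 1.39 ± 0.49 SE, adjusted p = 0.409). At an unadjusted p under 0.05, 1 of the 10 was higher, where 7.58% of tested genes were. Without early liver replicate 2, 3 of the 10 were called, in a fit that called 1365 of the 15465 genes higher and 550 lower.

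The spleens of leukemia-bearing mice gave 2 early libraries, 1 mid library and the undivided library. The early spleen libraries had 718.3 and 531.6 CPM of *Hspa5* and 137.7 and 101.1 CPM of *Pdia6*, and no gene of the 10 and none of all tested genes (0%; 972 at an unadjusted p under 0.05; 7 higher and 7 lower by DESeq2) was called against control. Log2 fold changes ran from -0.89 (*Dnajb9*) to 0.03 (*Pdia4*). The mid spleen library of day 14 stood between the controls and the mid liver libraries for 4 genes, with 511.8 CPM of *Hsp90b1*, 732.7 of *Calr*, 232.2 of *Pdia4* and 263.1 of *Pdia6*, and within the mid liver range for *Hspa5*, with 1056 CPM. Each of these 5 was above the highest control value, but with 1 library none was called (log2 0.43 to 1.08, adjusted p = 0.841 to 0.886), and 0.00647% of tested genes were (795 genes at an unadjusted p under 0.05; 10 higher and 2 lower by DESeq2). Undivided TCRTg101 of day 18, from spleens of mice that carried the leukemia, had 812.4 CPM of *Hspa5*, 381.3 of *Hsp90b1*, 618.4 of *Calr* and 162.4 of *Pdia6*, slightly above the highest control in each case. Log2 fold changes of the 6 genes there were 0.04 to 0.38, none of the 10 was called, and neither was any tested gene (0%; 174 at an unadjusted p under 0.05; 0 by DESeq2).

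The comparisons of liver with spleen from leukemia-bearing mice, which do not share the control libraries, called no member either. Early liver exceeded early spleen at an unadjusted p under 0.05 for 5 of the 10, *Hspa5* (log2 1.04), *Pdia6* (1.45), *Herpud1* (0.53), *Xbp1* (0.85) and *Atf4* (0.55), where 3.44% of tested genes did, but their adjusted p-values were all 0.544 and 0% of tested genes were called (1396 at an unadjusted p under 0.05; 21 higher and 40 lower by DESeq2). Mid liver against mid spleen gave log2 fold changes of -0.91 (*Dnajb9*) to 0.89 (*Pdia6*) with adjusted p-values of at least 0.711, where 0.00647% of tested genes were called (899 at an unadjusted p under 0.05; 13 higher and 4 lower by DESeq2). Late liver against undivided cells gave 1.26 ± 0.44 SE for *Pdia4* and 1.16 ± 0.49 SE for *Xbp1*, the 2 genes with an unadjusted p under 0.05, where 13.3% of tested genes were higher at that level. Their adjusted p-values were 0.135 and 0.187 in a comparison that called 0% of tested genes with edgeR (3751 at an unadjusted p under 0.05) and 1218 higher and 729 lower with DESeq2, 1 of the 10 among them.

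**Figure D4:**
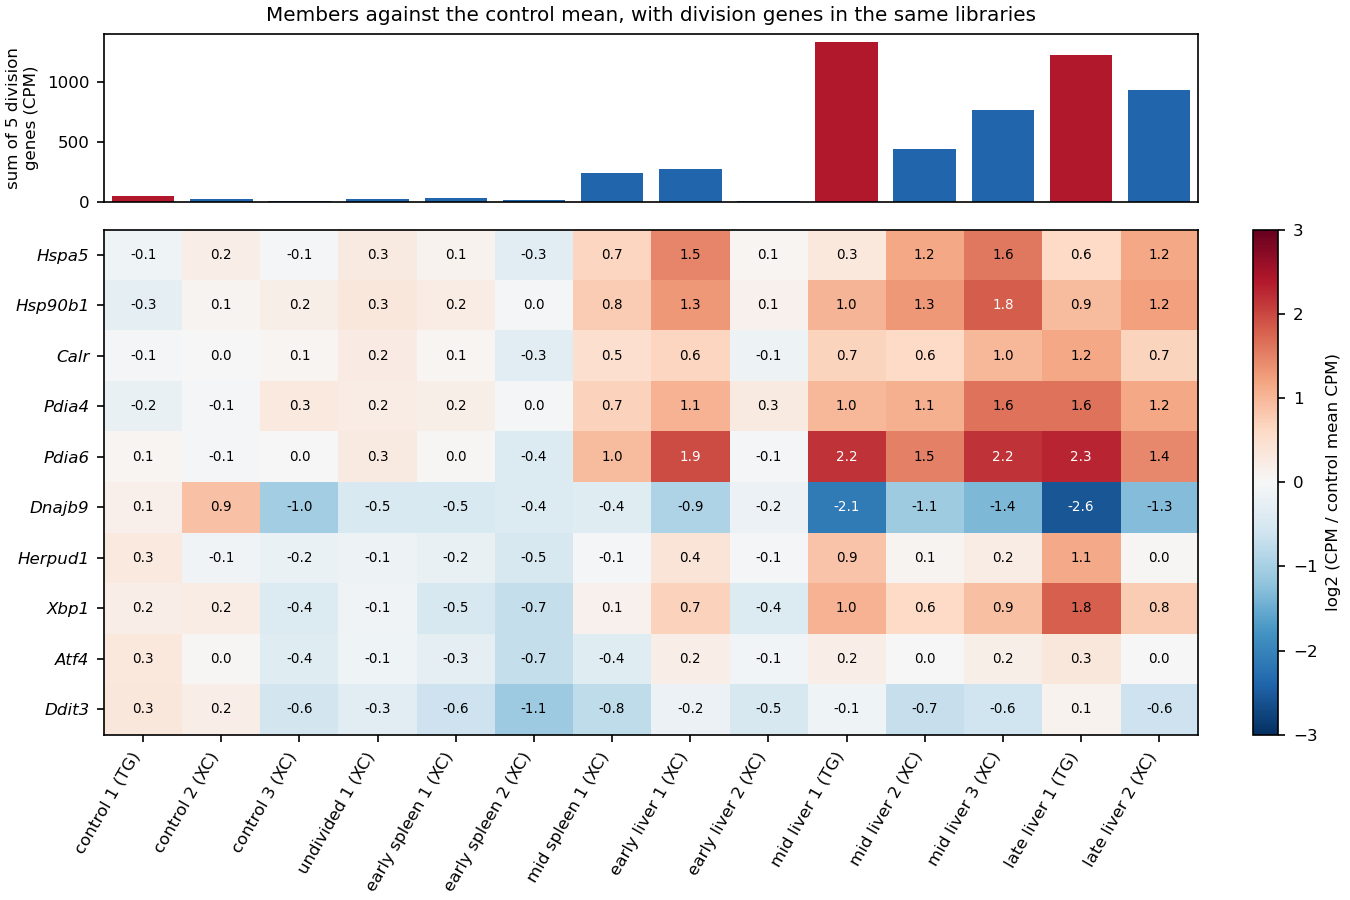
Bottom, log2 of each CPM over the mean CPM of the 3 control libraries, by gene and library (colour scale from -3 to 3); top, the summed CPM of 5 division genes in the same libraries (red bars TG, blue bars XC). The 6 genes that rose are highest in mid and late liver and in early liver replicate 1, with an exception for *Hspa5*. Its mid spleen value (0.65) exceeds those of mid liver replicate 1 (0.31) and late liver replicate 1 (0.60). Early liver replicate 2 resembles the controls in both parts.

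Markers of division moved with these values. The summed CPM of *Mki67*, *Top2a*, *Ccnb1*, *Birc5* and *Cdk1*, which are expressed in cycling cells, was 11.2 to 49.37 in controls and 442 to 1333 in mid and late liver, and all 5 genes were called higher. At day 7 it was 271.9 in liver replicate 1 and 10.03 in replicate 2, and in the mid spleen library it was 239.6. Within the mid and late group, mid liver replicate 1 and late liver replicate 1 had the highest division sums (1333 and 1220), the highest *Pdia6* (608.7 and 654.5 CPM) and *Xbp1* (180.4 and 303.5 CPM) and the lowest *Hspa5* (835.5 and 1020 CPM). The part of division in the rise of the ER genes was not tested.

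Other cell types were checked with lists of their markers. The summed CPM of 8 T cell genes was 3942 to 9182 in all 14 libraries, and *Cd8a* did not differ between mid and late liver and control beyond the threshold (log2 0.39, adjusted p = 0.111). Of the 8 genes, 1 was called higher and 0 lower there (23.1% and 20.8% of tested genes). In late liver alone, 2 were called higher (19.9% of tested genes). The 7 hepatocyte genes, of which *Serpina1c* and *Apoc3* were at 0 in all controls, were each seen in mid and late liver, and their sum was 0.1954 to 0.6738 CPM in controls and 3.251 to 294.1 CPM in mid and late liver. Mid liver replicate 3, with the lowest sum of that group (3.251 CPM), had the highest *Hspa5*, *Hsp90b1* and *Pdia4* of all 14 libraries, and late liver replicate 1, with the highest sum (294.1 CPM), had the highest *Calr*, *Pdia6* and *Xbp1*. The plasma cell genes, of interest because such cells are rich in ER chaperones, summed to 2.141 to 6.427 CPM in controls and 3.251 to 18.54 CPM in mid and late liver, of which *Sdc1* took 2.031 to 12.07 CPM, while *Mzb1* and *Tnfrsf17* were at 0 in most libraries. The 5 erythroid genes summed to 5220, 20350 and 136 CPM in control replicates 1 to 3 and to 5.586 to 214.9 CPM in mid and late liver, and the 9 myeloid genes to 631.3, 127 and 18.83 CPM and to 12.26 to 50.83 CPM. The 2 day 0 controls, high in both, were also those with the higher *Dnajb9* (43.9 and 73.02 CPM, against 19.18 CPM at day 18). In controls and in mid and late liver, the 6 B cell genes summed to 560.4 to 708.8 and 476.3 to 815.3 CPM, nearly all of it *Ighm*, and the 4 CD4 and NK cell genes to 1.006 to 10.23 and 3.159 to 9.472 CPM. The part of these cells in the results was not tested.

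Beyond the 10 genes, lists of related genes were described by their counts in mid and late liver against control. Of 15 other ER chaperone and foldase genes, 13 were higher and none lower, with a median log2 fold change of 1.20 (all tested genes, -0.07; 23.1% higher and 20.8% lower as above). *Sdf2l1*, which works with ERdj3 and BiP, rose 7.38-fold (log2 2.88 ± 0.65 SE, adjusted p = 0.00929). It was at 26.86 to 56.31 CPM in controls and 115.1 to 619.3 CPM in mid and late liver. *Creld2*, a secreted ER stress protein, rose 3.87-fold (log2 1.95, adjusted p = 0.00929), and the 2 that were not called were *Dnajc3* (log2 0.10) and *Ero1b* (log2 -0.47). *Dnajc3*, like *Dnajb9*, encodes a J-domain co-chaperone of BiP, and another such gene, *Dnajb11*, rose (log2 1.12, adjusted p = 0.00714). *Dnajc3*, *Ero1b*, *Dnajb11*, *Syvn1*, *Sel1l*, *Trib3*, *Atf3* and *Slc7a11* were named after their values were seen. Without control replicate 1 the 13 genes became 2, and with the XC series alone 0.

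Of 14 genes of ER-associated degradation besides *Herpud1*, 6 were higher and none lower (23.1% and 20.8% of tested genes). The median of the 14 was 0.38. *Derl3*, a derlin of the retrotranslocation channel, rose from 0.7337 to 1.035 CPM in controls to 4.752 to 50.02 CPM in mid and late liver (log2 4.44 ± 1.0 SE, adjusted p = 0.00963), and its relative *Derl2* rose 1.60-fold (adjusted p = 0.0127). The core ligase genes *Syvn1* (log2 0.19) and *Sel1l* (log2 0.31) were not called. Of 21 genes of the translocon, signal peptidase and early secretory pathway, 14 were higher and none lower (23.1% and 20.8% of tested genes). The median of the 21 was 0.68. *Ssr2*, a subunit of the translocon-associated complex, rose 3.24-fold (log2 1.70 ± 0.33 SE, adjusted p = 0.00469) and *Sec61g*, the gamma subunit of the channel, 2.62-fold (adjusted p = 0.00628). Both counts fell without control replicate 1, to 0 and 4 genes, and without TMM factors, to 2 and 8.

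The sensors themselves did not pass the test in either direction in mid and late liver together. *Ern1* was at 4.193 to 9.24 CPM in controls and 2.811 to 8.379 CPM in mid and late liver (log2 -0.19 ± 0.26 SE, adjusted p = 0.558). *Eif2ak3* had a log2 fold change of -0.72 ± 0.30 SE (adjusted p = 0.07) and *Atf6* of 0.98 ± 0.45 SE (adjusted p = 0.101). In mid liver alone, *Eif2ak3* was called lower (log2 -1.01, adjusted p = 0.0476, edgeR), where 11.8% of tested genes were. Of the 11 sensor and regulator genes besides *Xbp1*, 3 were higher and 2 lower, with a median of -0.19, shares close to the background of 23.1% and 20.8%. Without control replicate 1 there were 1 and 0, and without TMM factors 2 and 5. *Eif2s1*, which encodes the alpha subunit of eIF2 that PERK phosphorylates, rose 2.18-fold (adjusted p = 0.00893), and *Creb3l2*, an ER-bound transcription factor of the ATF6 type, rose 1.97-fold (adjusted p = 0.003). *Nfe2l2*, which encodes the oxidative stress factor NRF2, fell 2.10-fold (adjusted p = 0.00549), and *Mbtps2*, the site-2 protease that releases ATF6, fell 1.44-fold (adjusted p = 0.0318).

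While neither *Atf4* nor *Ddit3* was called, 10 of the 19 other tested genes of the ATF4 and CHOP branch were higher and 1 was lower. Of all tested genes 23.1% were higher and 20.8% lower, and the median of the 19 was 1.01. Without control replicate 1, 3 were higher, and without late liver replicate 1, 6. *Asns*, the asparagine synthetase, rose from 1.211 to 3.818 CPM in controls to 44.22 to 139.9 CPM in mid and late liver (log2 5.46 ± 0.90 SE, adjusted p = 0.00432). *Psat1*, an enzyme of serine synthesis, rose 9.83-fold (log2 3.30 ± 0.62 SE, adjusted p = 0.00547). Both act in amino acid synthesis and are also used by dividing cells. *Ppp1r15a*, which encodes GADD34, the subunit that directs a phosphatase to eIF2alpha, fell 4.54-fold (log2 -2.18 ± 0.61 SE, adjusted p = 0.021), from 951.8, 624.4 and 425.2 CPM in controls to 58.43 to 311.7 CPM. *Vldlr* was not tested, and *Trib3* (log2 1.26, adjusted p = 0.0649), *Atf3* (log2 -0.04) and *Slc7a11* (log2 -0.25) were not called.

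As a comparison outside the ER, 5 of 13 cytosolic and mitochondrial heat shock genes were higher and 3 lower (23.1% and 20.8% of tested genes). The median of the 13 was 0.34. Without control replicate 1 both counts were 0, and with 1 other library left out they were 4 or 5 and 1 to 3. The 2 largest rises were those of the mitochondrial chaperonin genes *Hspe1* (log2 1.45, adjusted p = 0.00724) and *Hspd1* (log2 1.42, adjusted p = 0.0127). The cytosolic J-domain genes *Dnajb1* and *Dnaja1* fell by 1.29 and 0.68 on the log2 scale (adjusted p = 0.00606 and 0.0125). *Dnajb1* was at 381.1 to 564.3 CPM in controls and 140.5 to 277.2 CPM in mid and late liver.

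**Figure D5:**
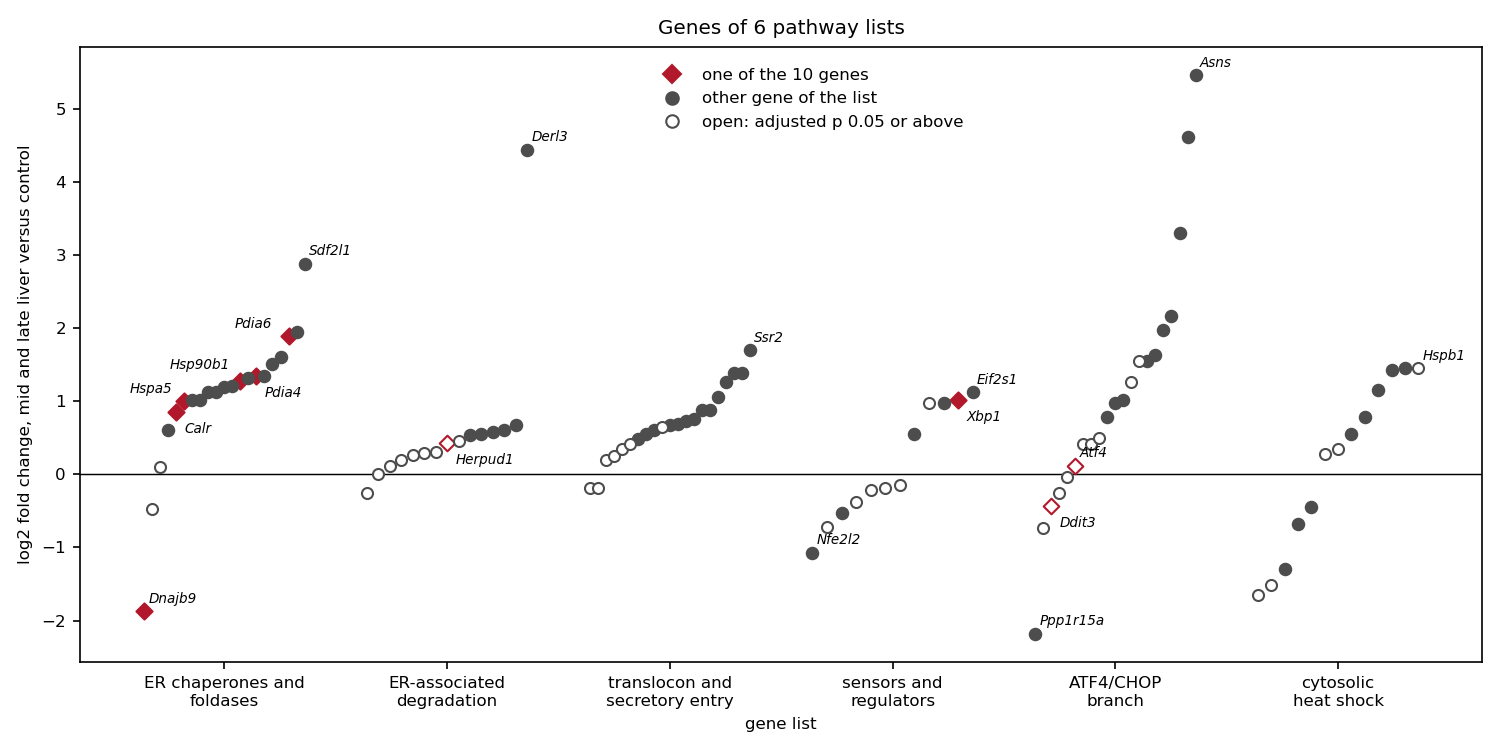
Log2 fold change in mid and late liver versus control for the tested genes of 6 lists, sorted within each list; diamonds are the 10 genes, circles the others, and filled symbols have an adjusted p under 0.05. ER chaperones lie mostly above 0 with *Dnajb9* below it, and the ATF4 and CHOP list spreads from *Ppp1r15a* to *Asns*.

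The elements printed above were then set against the fold changes of all genes with a RefSeq window, as a description. Among the 20 tested genes outside the 10 that held an exact ERSE or ERSE-II, 9 were higher and 5 lower, with a median log2 fold change of 0.58. By element and with the 10 genes included, 8 of 17 ERSE genes were higher and 3 lower. All 4 members with an ERSE were among these 8. For ERSE-II, 5 of 8 genes were higher and 2 lower, and its 1 member, *Herpud1*, was not called. Among all 10865 tested genes with a window, 24.8% were higher, 21.6% were lower and the median was -0.05. For UPRE the shares were 31.8% and 18.3% of 333 genes and for CARE 21.5% and 19.7% of 340 genes, with medians of 0.07 and -0.16.

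Over the 14 libraries the members did not all vary together. Correlations of log2 CPM (Pearson, n = 14 libraries, which share groups, series and depth) were 0.79 to 0.96 among *Hspa5*, *Hsp90b1*, *Calr*, *Pdia4* and *Pdia6*, and *Xbp1* was closer to *Calr* (0.91) and *Pdia6* (0.91) than to *Hspa5* (0.63). *Herpud1* went with *Xbp1* (0.89) and *Atf4* (0.80), and *Atf4* with *Ddit3* (0.78), whereas *Ddit3* and *Hspa5* were at -0.09. *Dnajb9* was negative against the 5 chaperone and foldase genes, from -0.41 with *Hspa5* to -0.82 with *Pdia4*. Among 9249 genes with sufficient level and outside the lists, those most like *Hspa5* were *Hccs* (0.961), *Hnrnpa2b1* (0.96), *Stt3a* (0.957), *Hspa4* (0.954) and *Kpna3* (0.953).

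The share of a gene's counts given to each transcript was also read. *Pdia4* and *Dnajb9* were counted almost wholly on Pdia4-201 and Dnajb9-201, with at least 98.5% and 89.3% in each low-input library. *Herpud1* divided mainly between a pair of transcripts, with 24.6% to 59.4% of its counts on Herpud1-201 over the 14 libraries. In *Atf4* the share of Atf4-201 was 95.54%, 96.88% and 97.59% in the TG libraries and 65.81% to 82.13% in the XC libraries, so it followed the series rather than the group.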

How the data were processed

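RNA of sorted TCRTg101 was measured by low-input RNA-seq in 14 libraries, made in the TG and XC series of titles, and in 1 oligo-dT-primed library. The authors quantified reads with kallisto and deposited, for each of 26 sequencing runs, estimated counts and TPM per transcript. The TPM as deposited are normalized for transcript length and library total, and the deposited estimated counts are not normalized. The notes name GRCm38 and mm10; the versions of kallisto and bcl2fastq are not given in the sources used here.

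Transcripts were matched to GENCODE vM21 (GRCm38), 116710 of 118783 in each file (99.0% to 99.29% of counts). Estimated counts were summed over runs and transcripts to genes and rounded to whole numbers. A gene was kept if 6 or more of the 14 libraries had 10 or more counts of it. Kept genes were tested two-sided with edgeR 4.0.16 in R 4.3.3 (quasi-likelihood, robust, TMM factors of 0.723 to 1.22), with group and series as terms, and p-values were adjusted by Benjamini-Hochberg at 0.05 over all tested genes. The series are a batch only as far as titles and methods give it. DESeq2 1.42.0 and limma 3.58.1 (pseudocount 1 on TPM), other scalings, filters and sets of libraries served as alternatives. Comparisons with control share its 3 libraries.

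Correlations used log2 CPM with a prior count of 2. Promoter windows came from RefSeq. The 10 genes and the lists were chosen with earlier results of these data known. Named were the 10 genes, the 3 sensors, the 2 largest rises and falls per list among called genes with a mean log2 CPM of 3 or more, and the 5 genes most like *Hspa5*. Each library held 22918996 to 71358287 estimated counts (median 34349318).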

Additional observations from a re-analysis of the deposited data

Results flagged for a closer look

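The oligo-dT-primed control library entered no comparison. In it, 4 of the 10 genes lay above all 3 low-input controls when CPM of this and the low-input libraries were scaled together by TMM factors. *Dnajb9* was at 214.6 CPM against 19.02 to 72.39 in the low-input controls, 4.93 times the low-input control of the same TG series. *Hsp90b1* was at 463.3 CPM against 250.8 to 336.9, *Calr* at 836.6 against 497.1 to 539.4, and *Atf4* at 393 against 183.6 to 292.9. Of the other 6 genes, 3 lay below all low-input controls and 3 within their range. This library differs from the others in how it was primed, has no replicate, and its differences were not tested.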

How the results depend on the processing

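In 22 alternative settings for mid and late liver versus control, the number of the 10 genes called stayed within 1.5 times of 7 in 18. The calls held in 20 settings for *Hsp90b1* and *Pdia4*, 19 for *Pdia6* and *Dnajb9*, 17 for *Calr*, 15 for *Xbp1* and 9 for *Hspa5*, and *Ddit3* was gained in 4 and *Herpud1* in 1. With the XC series alone, the counts were 0 in mid and late liver (6 of all tested genes) and 0 in mid liver (0 of all tested genes). A setting with the day 18 control alone was added after seeing the data. That control and XC late liver are each a single library, so no counts are given for them. Leaving out 1 library gave 2 to 7 for mid and late liver, 0 to 4 for mid liver, 0 to 5 for late liver, 0 to 3 for early liver versus control and 0 to 4 for early liver versus early spleen. Mid liver had 3 calls without a series term (1168 higher and 596 lower of all tested genes). Late liver had 3 with limma on log2 TPM, also added later (1677 and 2874). Without a count filter, early liver versus control had 1 (867 higher and 428 lower of all genes), early liver versus early spleen 2 (517 and 467) and late liver versus undivided 3 (1435 and 783), and DESeq2 gave 1 for the last. The sign turned for *Atf4* without TMM factors (log2 -0.14 in mid and late, -0.10 in mid, -0.19 in late liver), with limma on log2 TPM (-0.14, -0.05 and -0.23) and without control replicate 3 or with day 0 controls only, which is the same fit (-0.01 in mid and late and -0.01 in mid liver; single omissions gave up to 0.21 in each), and for *Ddit3* in late liver against the day 18 control (0.01). The cause was not tested. No paired analysis was possible because replicate numbers only name libraries. The 1 to 3 libraries per group, from an unknown number of mice, limit precision more than depth does.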
